A study of Mus musculus with 468 samples.

Results

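The integrated stress response and the unfolded protein response were followed here through 10 genes in visceral adipose tissue of Diversity Outbred mice. The genes were fixed by name and found by their symbols, each once, among 23180 genes of the count table. They fall into an amino acid arm of 6 genes (Atf4, Ddit3, Trib3, Asns, Chac1 and Fgf21) and an endoplasmic reticulum (ER) arm of 4 genes (Hspa5, Xbp1, Dnajb9 and Herpud1). All 10 passed the filter on low counts that kept 18380 genes. Diversity Outbred mice are an outbred stock in which the genomes of several inbred founder strains are shuffled, so that almost every animal has a genotype of its own. Every animal ate a diet rich in fat and sugar (45 percent fat by the labels), and no mice on another diet were analysed here. RNA sequencing gave 1 library per mouse, all in 1 group, and the labels give neither age nor sex (the methods of the study describe adults of both sexes). Every SD and r below is over all mice unless a subset is named, and an SD holds both the differences between animals and the error of the assay.

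Libraries held between 35.3 M and 137.8 M expected counts, with a median of 82.04 M. Abundance is given in CPM, counts scaled to library size by the TMM method. Counts of the Y chromosome genes Ddx3y, Eif2s3y, Kdm5d and Uty were present in 51.5% of the libraries, and the other 48.5% had none. This split was used only to centre values and to compare relations between genes, and r below is the Pearson correlation of log2 CPM values centred within both sets. The adipocyte markers Adipoq, Plin1 and Fabp4 had medians of 2096, 1482 and 9671 CPM and no library at 0. The library of mouse DO283 stood apart, with 210517 CPM of the seminal vesicle gene Svs5, and results that rest on it are given with and without it. DO283 was among 32 libraries flagged for transcripts of another tissue, 16 for muscle, 12 for epididymis or seminal vesicle and 4 for pancreas. A library was flagged if the summed CPM of a tissue's markers was above 50 and above 10 times its median. For liver 0 libraries were flagged, and the rule could flag none. The liver markers include Cyp2e1, with a median of 1363 CPM, and their sum had a median of 1526 and a maximum of 11137.5 CPM. Alb reached 4978 CPM (median 23.6), so leaving out the flagged libraries does not remove liver transcripts.

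Cells that run short of amino acids, or whose ER fills with unfolded protein, phosphorylate the translation factor eIF2. Bulk protein synthesis then falls, while the messenger RNA of Atf4 is translated more, and the ATF4 protein switches on genes for amino acid supply and, under lasting stress, for cell death. This is the integrated stress response. The ER adds its own branches, in which ATF6 and the spliced form of XBP1 raise chaperones and the machinery that removes misfolded proteins. Adipocytes secrete large amounts of protein, and both responses are studied in obese fat tissue. Because ATF4 is controlled through translation and XBP1 through splicing, gene counts show only the transcript level of both, and splice forms of Xbp1 were not resolved here.

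The sequence just before the start of these genes is where the factors are known to bind, and the stretches below are shown because they carry the letters matched in each gene. The matches followed the arms apart from Herpud1, and some genes of either arm held none. Sequences are from RefSeq (GRCm38.p6), 250 bases before to 50 after each start, and all 10 genes had a promoter in that table. The letters TGATGNAA, a form of the C/EBP-ATF response element that ATF4 recognises, were searched on both strands. They were present in 3.97% of 32851 promoters and in the promoters of Trib3, Asns, Chac1, Fgf21 and Herpud1. The ER stress element, CCAAT and CCACG with 9 bases between them, was present in 0.119% of promoters and in that of Hspa5. A second form of that element, ATTGG and CCACG with 1 base between them, was present in 0.0365% of promoters and in that of Herpud1. The letters TGACGTGG, a form of the unfolded protein response element, were present in 0.676% of promoters and in none of the 10. No match overlapped another. Capitals below mark the match, and the ER stress element in Hspa5 has its capitals on both ends. In Chac1, Fgf21 and Herpud1 the first match reads as the reverse complement.
Asns: gtcccagccacaTGATGAAActtcccgcac
Chac1: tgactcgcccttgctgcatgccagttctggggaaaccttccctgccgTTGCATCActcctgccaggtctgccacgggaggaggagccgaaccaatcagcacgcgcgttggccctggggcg
Fgf21: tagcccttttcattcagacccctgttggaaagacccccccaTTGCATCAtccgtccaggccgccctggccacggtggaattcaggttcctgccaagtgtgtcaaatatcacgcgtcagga
Hspa5: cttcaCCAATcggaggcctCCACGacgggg
Herpud1: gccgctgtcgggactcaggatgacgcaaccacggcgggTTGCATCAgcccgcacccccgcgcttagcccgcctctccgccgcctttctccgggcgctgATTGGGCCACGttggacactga

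These stretches lie at chr6:7693215-7693244 (minus strand, Asns), chr2:119351002-119351121 (plus, Chac1), chr7:45615551-45615670 (minus, Fgf21), chr2:34772020-34772049 (plus, Hspa5) and chr8:94386279-94386398 (plus, Herpud1). The match in Asns began 23 bases before the RefSeq start and that in Hspa5 65 bases before it. The gene models of GENCODE M21 begin 45 and 120 bases further upstream for Asns and Hspa5, so both matches are in the first exon by that annotation. Herpud1 is the only gene of the 10 with a match of both kinds, and its ER stress element began 52 bases before the start. In Trib3 the match fell just after the RefSeq start. Atf4, Ddit3, Xbp1 and Dnajb9 held none of these letters in the window, which says nothing about sites elsewhere.

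Atf4 (ENSMUSG00000042406, chromosome 15, 80255184 to 80257541 on GRCm38), the transcription factor at the centre of the amino acid arm, had 50.9 CPM in the lowest library, 76.7 at the median and 245.2 in the highest. The middle of its range was narrow, since the 95th percentile was 1.83 times the 5th. Ddit3 (ENSMUSG00000025408, chromosome 10, 127290774 to 127296288), which codes for the pro-apoptotic factor CHOP, lay between 6.64 and 31.5 CPM (median 12.8). Trib3 (ENSMUSG00000032715, chromosome 2, 152337422 to 152344032), a pseudokinase induced by ATF4 and CHOP, lay between 2.05 and 21.4 CPM (median 6.24). Both varied more widely than Atf4 relative to their level, with a coefficient of variation of 26.9% for Ddit3 and 36.7% for Trib3 against 22.1%.

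Asns (ENSMUSG00000029752, chromosome 6, 7675169 to 7693254), asparagine synthetase, lay between 12.9 and 212.7 CPM (median 71.9). Its SD of log2 CPM, 0.65, was at percentile 93.7 among genes of like mean abundance, whereas those of the other 9 genes were at percentiles from 35.6 to 72.6. Chac1 (ENSMUSG00000027313, chromosome 2, 119351229 to 119354381), an enzyme that degrades glutathione, lay between 1.64 and 67.1 CPM (median 4.83). Its highest library was far from the next, which had 20.02 CPM. Fgf21 (ENSMUSG00000030827, chromosome 7, 45613886 to 45615490), a secreted hormone of fasting and stress, lay between 0.0394 and 3.23 CPM (median 0.562). With a median of 49 counts per library its counting error alone was 14.3%, against a coefficient of variation of 66.6%.

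In the ER arm, Hspa5 (ENSMUSG00000026864, chromosome 2, 34771970 to 34777547), the chaperone BiP that holds the ER stress sensors inactive, lay between 280 and 1263 CPM (median 561.2). Xbp1 (ENSMUSG00000020484, chromosome 11, 5520659 to 5525893), whose spliced form codes for a transcription factor, lay between 101.2 and 380 CPM (median 153.2). Dnajb9 (ENSMUSG00000014905, chromosome 12, 44205559 to 44210326), a co-chaperone of BiP, lay between 31.8 and 112.1 CPM (median 56.4). None of these genes had a library that stood far above all others. Herpud1 (ENSMUSG00000031770, chromosome 8, 94386438 to 94395377), a membrane protein of ER-associated degradation, lay between 34.7 and 264.3 CPM (median 60.8), and the second highest library had 130.6 CPM. Ddit3 overlaps Gm4189, Mars and a second annotated Ddit3 gene, Herpud1 overlaps Gm15890 and Dnajb9 overlaps Mir5627. Whether counting used strand is not given in the sources used here, so reads from bases that these genes share may not be told apart. The length of the overlaps was not computed.

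**Figure D1:**
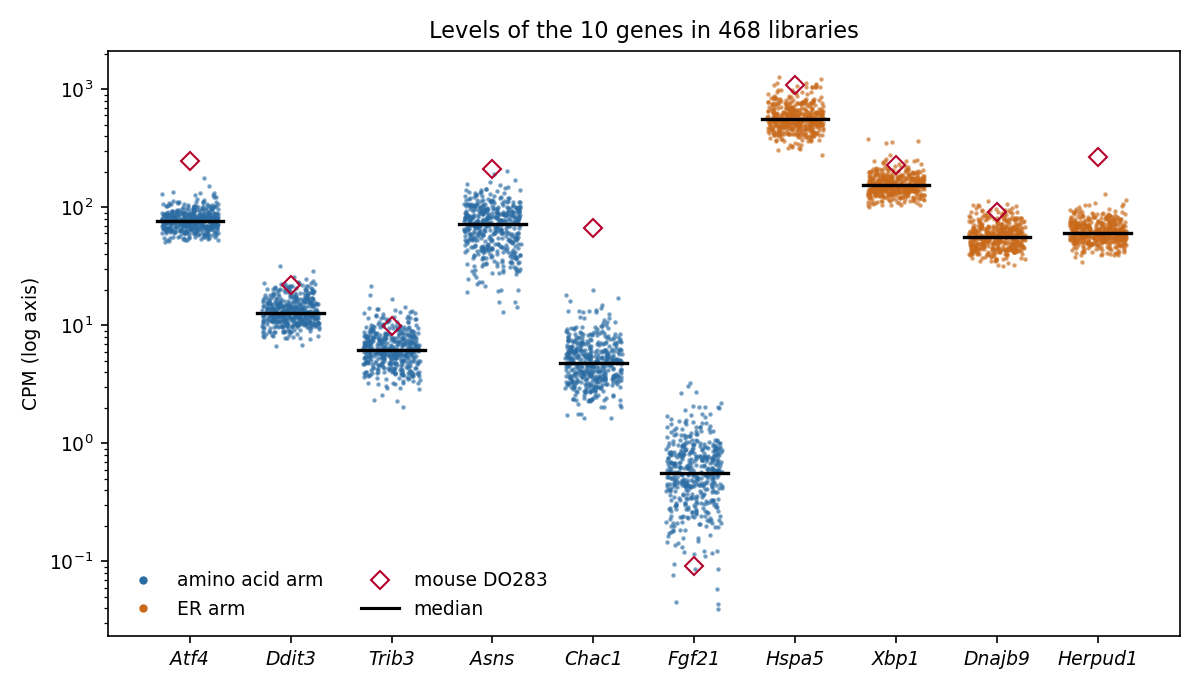
CPM of each of the 10 genes (x axis) in every library (points, log axis; amino acid arm blue, ER arm orange), with the median as a bar and mouse DO283 as an open diamond. Hspa5 had the highest median, 561.2 CPM, and Fgf21 the lowest, 0.562 CPM, and DO283 lay at the top for Atf4, Asns, Chac1 and Herpud1.

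Per kilobase of exon, Hspa5 led with a mean of 140 ± 38.4 CPM (SD over all mice). Xbp1 followed with 49.004 ± 10.7 CPM per kilobase and Atf4 with 33.6 ± 7.40. Herpud1 (27.2 ± 7.06), Asns (26.7 ± 11.2) and Dnajb9 (22.9 ± 5.81) came next, with means closer to each other than their SDs. Ddit3 had 7.93 ± 2.13 CPM per kilobase. Chac1 (3.34 ± 2.33) and Trib3 (3.14 ± 1.15) also lay within 1 SD of each other, and Fgf21 was lowest with 0.688 ± 0.458. All 10 genes were detected in every library, and the lowest count was 3 for Fgf21.

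The 10 highest libraries of each gene were then compared. Of all libraries, 86.3% were in the 10 highest of none of the genes, 43 libraries in those of 1, 12 of 2, 5 of 3, 2 of 4 and 2 of 5. The cutoff by itself leaves most libraries in none, and the share that unrelated genes would give was not computed. The libraries with the most were not alike. Mouse DO478 had the second highest Atf4 (177.4 CPM) and Ddit3 (28.7 CPM), the highest Fgf21 (3.23 CPM) and a high Dnajb9 (94.6 CPM), while its Chac1 (3.11 CPM) and Xbp1 (117.5 CPM) were below their medians. Mouse DO161 was in the 10 highest of Atf4, Ddit3, Fgf21, Dnajb9 and Herpud1, with 126.01, 23.6, 2.02, 97.96 and 100.5 CPM. Mouse DO349 showed another combination: the lowest Ddit3 (6.64 CPM) and the lowest Hspa5 (280 CPM) of all libraries went with the second highest Xbp1 (366.9 CPM) and Dnajb9 (106.45 CPM) and with high Asns (149.3 CPM) and Chac1 (14.7 CPM).

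Mouse DO283 had the highest Atf4 (245.2 CPM), Asns (212.7 CPM), Chac1 (67.1 CPM) and Herpud1 (264.3 CPM) and the sixth highest Hspa5 (1095 CPM). These were 3.20, 2.96, 13.9, 4.35 and 1.95 times the medians. Its Fgf21 was low, at 0.0910 CPM. The library had the lowest total of all, 35.3 M, and of the 4 epididymis and seminal vesicle markers in the table it held 210517 CPM of Svs5, 17070 of Ceacam10 and 1249 of Tgm4, with Rnase10 at 0. Its adipocyte markers summed to 11936.5 CPM against a median of 29464. The part of the other tissue in the high values was not tested.

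Whether the genes of an arm vary together over mice was asked for all 45 pairs. The median r was 0.164 over 15 pairs within the amino acid arm, 0.242 over 6 pairs within the ER arm and 0.204 over 24 pairs between the arms. In the libraries with Y chromosome counts alone these medians were 0.106, 0.351 and 0.181, and in those without 0.197, 0.201 and 0.213. All 6 pairs within the ER arm were positive, whereas 5 of 15 within the amino acid arm and 4 of 24 between the arms were negative. By a two-sided permutation test within both sets of libraries (100000 resamples), 35 of 45 pairs had p under 0.05, and 27 reached 1e-05, the smallest p it can give. These p-values were not adjusted over the pairs, and pairs of other genes were not tested this way. In the limma fits below, 23.3% of all genes rose and 24.5% fell with Atf4, and 30.8% and 36.6% with Hspa5. The count of pairs is therefore not read as a result about the members. The points are libraries, which share the scaling of the library total, and the medians are descriptions with no test.

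**Figure D2:**
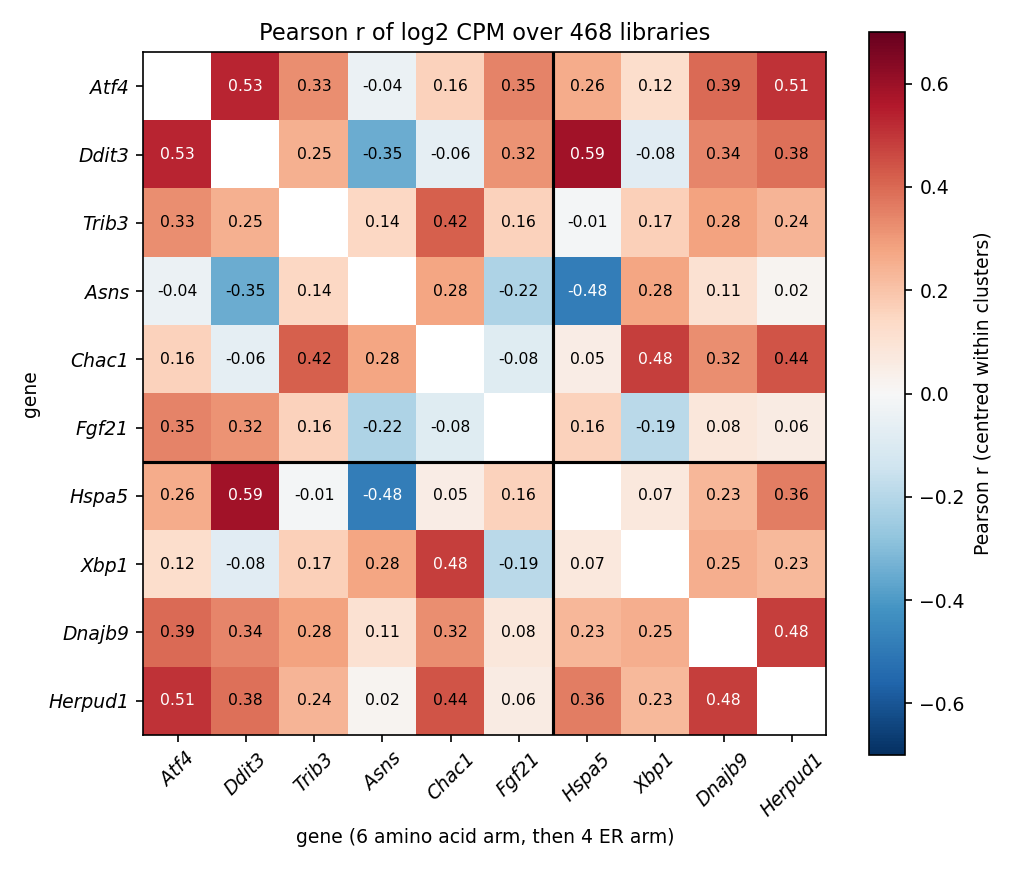
Pearson r of each pair of genes over all libraries, with both axes listing the 6 genes of the amino acid arm and then the 4 of the ER arm, separated by black lines. The highest r, of Ddit3 with Hspa5 (0.590), and the lowest, of Asns with Hspa5 (-0.482), both lie between the arms.

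The highest r of all pairs joined the arms. Ddit3 and Hspa5 had r = 0.590 (rho = 0.551, permutation p = 1e-05 for both). The relation was closer in the libraries with Y chromosome counts (r = 0.792) than in those without (0.317). Atf4 and Herpud1 had r = 0.506 (rho = 0.430, permutation p = 1e-05 for both), which became 0.458 without DO283. It was 0.443 without all libraries flagged for another tissue, and 0.514 and 0.507 in the libraries with and without Y chromosome counts. Chac1 and Xbp1 had r = 0.483 (rho = 0.449, permutation p = 1e-05 for both), and Chac1 and Herpud1 r = 0.439. The last became 0.381 without DO283.

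Within the amino acid arm, Atf4 and its target Ddit3 had r = 0.534 (rho = 0.523, permutation p = 1e-05 for both), and Trib3 and Chac1 had r = 0.416. Atf4 and Fgf21 had r = 0.347, with 0.540 where Y chromosome counts were absent and 0.0910 where they were present. Asns was positive with some genes of its arm and negative with others. Asns and Chac1 had r = 0.277 (permutation p = 1e-05) and Trib3 and Asns r = 0.145 (permutation p = 0.00124). Atf4 and Asns had r = -0.0399 (permutation p = 0.373) and rho = -0.108 (permutation p = 0.0174), Ddit3 and Asns had r = -0.347, and Asns and Fgf21 had r = -0.216, the last pairs both with permutation p = 1e-05. Asns and Hspa5 had the lowest r of all pairs, -0.482 (rho = -0.499, permutation p = 1e-05 for both), with -0.522 and -0.417 in the libraries with and without Y chromosome counts.

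Within the ER arm, Dnajb9 and Herpud1 had the highest r, 0.483, followed by Hspa5 and Herpud1 with 0.360. Hspa5 and Xbp1 had r = 0.0728 (permutation p = 0.118) and rho = 0.0922 (permutation p = 0.0461). Hspa5 and Dnajb9 had r = 0.502 in the libraries with Y chromosome counts and -0.0430 in those without. Leaving out the 2 libraries farthest from the median of either gene kept the r of Ddit3 with Hspa5 at 0.585, of Atf4 with Ddit3 at 0.517 to 0.519, of Chac1 with Xbp1 at 0.471 to 0.475 and of Asns with Hspa5 at -0.486 to -0.478. Across 5 blocks of consecutive library numbers, used as stand-ins for batches that the labels do not name, these 4 pairs ranged from 0.548 to 0.634, 0.464 to 0.591, 0.444 to 0.569 and -0.601 to -0.369. Across 5 blocks of mouse numbers they ranged from 0.478 to 0.643, 0.355 to 0.638, 0.415 to 0.612 and -0.673 to -0.357, so each kept its sign in every block.

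**Figure D3:**
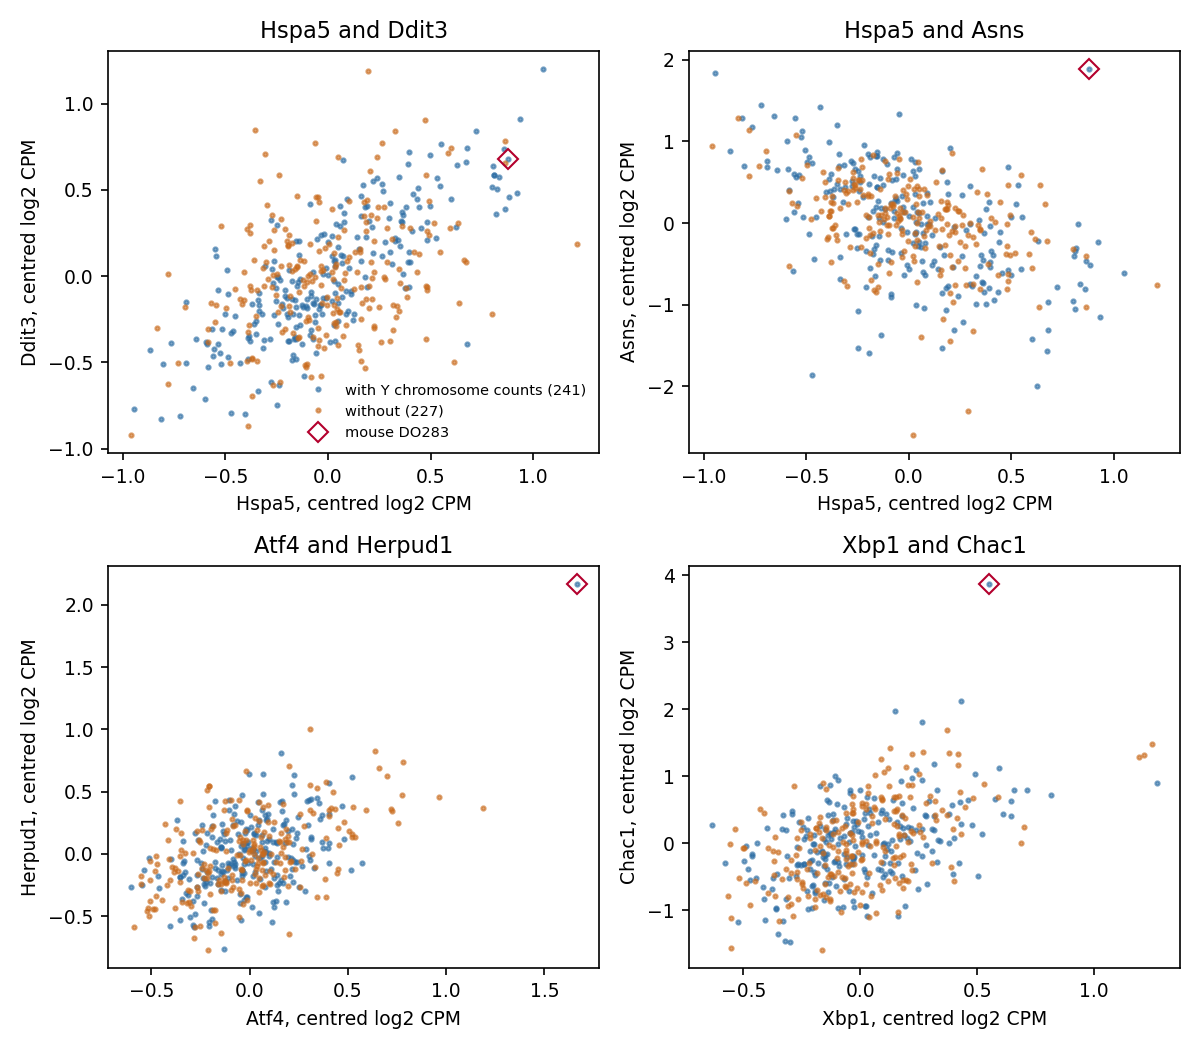
Centred log2 CPM of 4 pairs of genes, 1 point per library, with libraries that have Y chromosome counts in blue, those without in orange and mouse DO283 as an open diamond. Ddit3 rises with Hspa5 (r = 0.590) while Asns falls (r = -0.482), and DO283 lies far from the cloud for Atf4 with Herpud1, Xbp1 with Chac1 and Hspa5 with Asns.

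The members were then set against all genes, since with this many libraries weak relations also pass a test. Log2 CPM of every gene was fitted on that of Atf4 with limma, and adjusted p-values are by Benjamini-Hochberg over all genes. The r of a fit can differ from that of a pair in the last digit. Of the 9 other members, 8 rose with Atf4 and none fell, while 23.3% of 18379 genes rose and 24.5% fell. Asns, at r = -0.0399, did not pass (adjusted p = 0.5004). Without DO283, 6 of 9 rose and none fell (22.6% and 24.2% of genes), because Chac1 (r = 0.0874, adjusted p = 0.110) and Xbp1 (r = 0.101, adjusted p = 0.0588) no longer did. On Hspa5, 5 of 9 members rose (Atf4, Ddit3, Fgf21, Dnajb9 and Herpud1) and Asns fell, while 30.8% of genes rose and 36.6% fell. These numbers were the same without DO283 (31% and 37% of genes). Xbp1, Chac1 and Trib3 had r of 0.0727, 0.0515 and -0.0123 with Hspa5 and did not pass. With macrophage and adipocyte marker scores as covariates, Xbp1 (r = 0.216) and Chac1 (r = 0.205) passed as well, and the r of Asns with Hspa5 shrank to -0.201. In that fit 7 of 9 members rose with Hspa5 and 1 fell, while 3708 of 18379 genes rose and 4212 fell.

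With Y chromosome counts present, 7 of 9 members rose with Atf4 and none fell (17.3% and 18.4% of genes), and 5 rose and 1 fell with Hspa5 (29.2% and 36.7% of genes). With none present, 5 rose with Atf4 and none fell (25.5% and 29.6% of genes), and 2 rose and 1 fell with Hspa5 (26.6% and 25.9% of genes). Slopes were compared between both sets by a product term in the same limma fit, a test chosen with the data in view. The slope on Atf4 differed in 5 of 9 members (44.3% of all genes) and that on Hspa5 in 2 of 9, Ddit3 and Dnajb9 (37.9% of all genes). The first share lay above that of all genes and the second below it, and neither is read as a result about the members.

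Genes that ATF4 is known to control were taken from a list of 24 that excludes the members. On Atf4, 12 rose and 4 fell (23.3% and 24.5% of all genes). The median r was 0.106, against -0.0113 over all genes tested. The amino acid transporter gene Slc38a2 had r = 0.636, the highest of the list, followed by the transcription factor genes Atf5 (0.526) and Cebpb (0.506) and the transporter subunit gene Slc3a2 (0.499). The genes that fell were Psat1 (r = -0.273) and Phgdh (r = -0.264) of serine synthesis, Cth (r = -0.147) and Stc2 (r = -0.115). The proline synthesis genes Aldh18a1 (r = 0.0238) and Pycr1 (r = 0.0388) did not pass on Atf4, and rose with Hspa5 at r = 0.590 and 0.541. On Hspa5, 15 of the 24 genes rose and 3 fell (30.8% and 36.6% of all genes). Without DO283, 11 rose and 4 fell with Atf4 (22.6% and 24.2% of all genes). With Y chromosome counts present 14 rose and 3 fell with Atf4 (17.3% and 18.4% of all genes). With none present 11 rose and 8 fell (25.5% and 29.6% of all genes).

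Aminoacyl-tRNA synthetases, which load amino acids onto transfer RNA, were a list of 12. With Atf4, 9 rose and Lars fell, where 23.3% of all genes rose, with r from -0.115 to 0.575 (Cars) and a median of 0.320. The same numbers rose and fell without DO283. Of 8 genes for the eIF2 complex, its exchange factor eIF2B and its phosphatase subunits, 6 rose with Atf4 and Eif2b3 fell, and 5 rose and 1 fell without DO283. In the libraries with Y chromosome counts 3 rose and 3 fell (17.3% and 18.4% of all genes). In those without, 5 rose and none fell (25.5% and 29.6% of all genes). The r of Atf4 with the mean score of this list was 0.0236 and 0.535 in these sets, a difference that was not tested. Ppp1r15a (r = 0.549) and Ppp1r15b (r = 0.505), which direct the phosphatase that reverses eIF2 phosphorylation, had the highest values, and with Hspa5 they had r of -0.0161 (not passing) and -0.179. Among 9 genes for kinases and sensors, Eif2ak3, which codes for the ER stress kinase PERK, had r = 0.597 with Hspa5 and 0.121 with Atf4. Eif2ak1, for the kinase HRI, had 0.291 with Atf4 and -0.111 with Hspa5, and Ern1, for the sensor IRE1, had 0.173 and 0.0838, the last not passing. DO283 had the highest Ern1 of all libraries, 294.8 CPM against a median of 27.9. Without it neither Ern1 (r = 0.0412, adjusted p = 0.490) nor Eif2ak3 (r = 0.0611, adjusted p = 0.283) passed on Atf4, whereas Eif2ak1 (r = 0.265), Ppp1r15a (0.527) and Ppp1r15b (0.493) did (limma).

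All 17 ER chaperones and folding enzymes of a list rose with Hspa5, where 30.8% of all genes rose. They also did so without DO283 and in either set of libraries alone. Over all libraries r ran from 0.228 to 0.922 with a median of 0.809, against -0.0214 over all genes tested. Manf, an ER stress-inducible secreted factor, had r = 0.922, the Hspa5 cofactor gene Sdf2l1 0.895, Hyou1 0.878 and Hsp90b1 0.865. Markers of other cells moved with Hspa5 as well, since 14 of 15 macrophage markers rose and 12 of 13 adipocyte markers fell, and all 17 chaperones rose with the macrophage score and fell with the adipocyte score described further on. On Atf4 11 of the 17 rose and Dnajc10 fell (23.3% and 24.5% of all genes), with a median r of 0.173. With Atf4, 15 rose and none fell in the libraries with Y chromosome counts (17.3% and 18.4% of all genes). In those without, 4 rose and 5 fell (25.5% and 29.6% of all genes). Of 14 genes of ER-associated degradation, 12 rose with Hspa5 and 2 fell (30.8% and 36.6% of all genes). Sel1l (r = 0.651) and Derl3 (0.589) had the highest values and Derl1 (-0.437) the lowest. The r with the mean score of the 17 chaperones was 0.931 for Hspa5, 0.483 for Ddit3, 0.330 for Herpud1, 0.166 for Dnajb9 and 0.107 for Xbp1, and -0.450 for Asns. In the libraries with and without Y chromosome counts Ddit3 had 0.702 and 0.175, Herpud1 0.489 and 0.126, and Dnajb9 0.460 and -0.142, so the last turned sign. Xbp1 had 0.0422 and 0.191, Asns -0.490 and -0.383, and Hspa5 0.934 and 0.926. Without DO283 that of Herpud1 was 0.277. These differences were not tested.

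**Figure D4:**
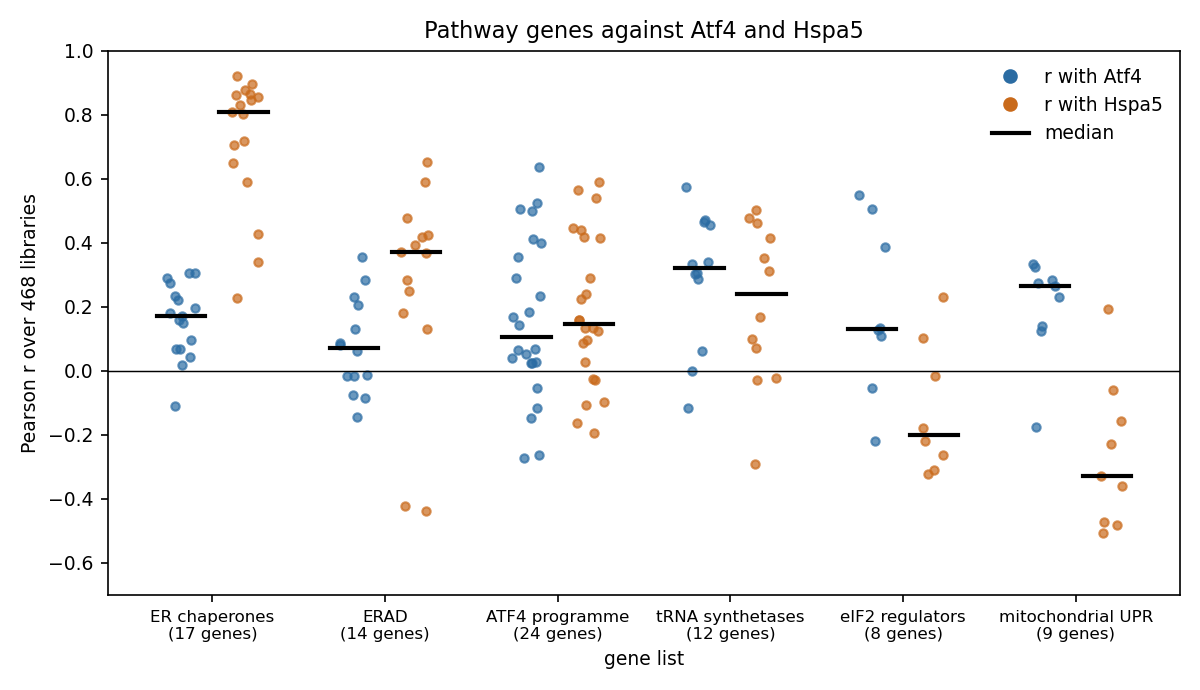
Pearson r of each gene of 6 pathway lists (points) with Atf4 (blue) and with Hspa5 (orange) over all libraries, with the list median as a bar. ER chaperones have a median r of 0.809 with Hspa5 and 0.173 with Atf4, and the mitochondrial genes have medians of opposite sign, 0.265 with Atf4 and -0.328 with Hspa5, although that with Atf4 was -0.191 in the libraries with Y chromosome counts alone.

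Bulk tissue holds several cell types, and fewer cells of a type cannot be told apart from less RNA per cell. Markers of macrophages (15 genes, summed 447.5 to 7728 CPM, none at 0 in any library) and of adipocytes (13 genes, summed 10699 to 45425 CPM, none at 0) were therefore scored as the mean of their standardised log2 CPM and every gene was fitted on each score. On the macrophage score Hspa5, Ddit3 and Fgf21 rose, and Asns, Chac1, Xbp1, Dnajb9 and Herpud1 fell, 3 and 5 of 10 members, while 34% of 18365 genes rose and 41.3% fell (limma). On the adipocyte score Asns, Chac1, Xbp1 and Trib3 rose, and Hspa5, Ddit3, Herpud1 and Atf4 fell, 4 and 4 of 10, while 34.1% rose and 39.4% fell. These counts are close to the background. Without DO283, Dnajb9 and Herpud1 no longer passed on the macrophage score nor Atf4 and Herpud1 on the adipocyte score, which left 3 and 2 members that fell (41.3% and 39.3% of genes), and 3 and 4 that rose (34.2% and 34.3%).

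The pooled values joined opposite relations. With Y chromosome counts present, 5 members rose and 3 fell with the macrophage score (31.2% and 40.3% of genes), and 3 rose and 4 fell with the adipocyte score (32.2% and 36.4% of genes). With none present, 1 rose and 5 fell with the macrophage score (36.2% and 33.8% of genes), and 4 rose and 1 fell with the adipocyte score (28.9% and 34.6% of genes). The slope on the macrophage score differed between both sets of libraries in all 10 members, while it did so in 55.4% of genes (product term in limma, adjusted p from 6.305e-15 for Ddit3 to 0.0412 for Hspa5). In the libraries with Y chromosome counts Ddit3 had r = 0.667 with the score, and in those without it had -0.103. Dnajb9 had 0.164 and -0.462, and Atf4 had 0.183 and -0.308. Asns (-0.653 and -0.360) and Hspa5 (0.660 and 0.380) kept their direction in both sets. The SD of the score was 0.867 in the libraries with Y chromosome counts and 0.614 in those without. On the adipocyte score, the slope differed in 6 of 10 members and in 41.8% of genes. There, Asns had r of 0.595 and 0.382 and Hspa5 had -0.521 and -0.395 in the libraries with and without Y chromosome counts.

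Hspa5 and Asns moved in opposite directions with both marker scores, and their own relation was weaker once the scores were in the model (r = -0.201 against -0.482). That of Ddit3 and Hspa5 was 0.484 with the scores against 0.590, that of Atf4 with Ddit3 0.583 against 0.534 and that of Chac1 with Xbp1 0.465 against 0.483. The part of tissue composition in these relations was not tested beyond this.

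**Figure D5:**
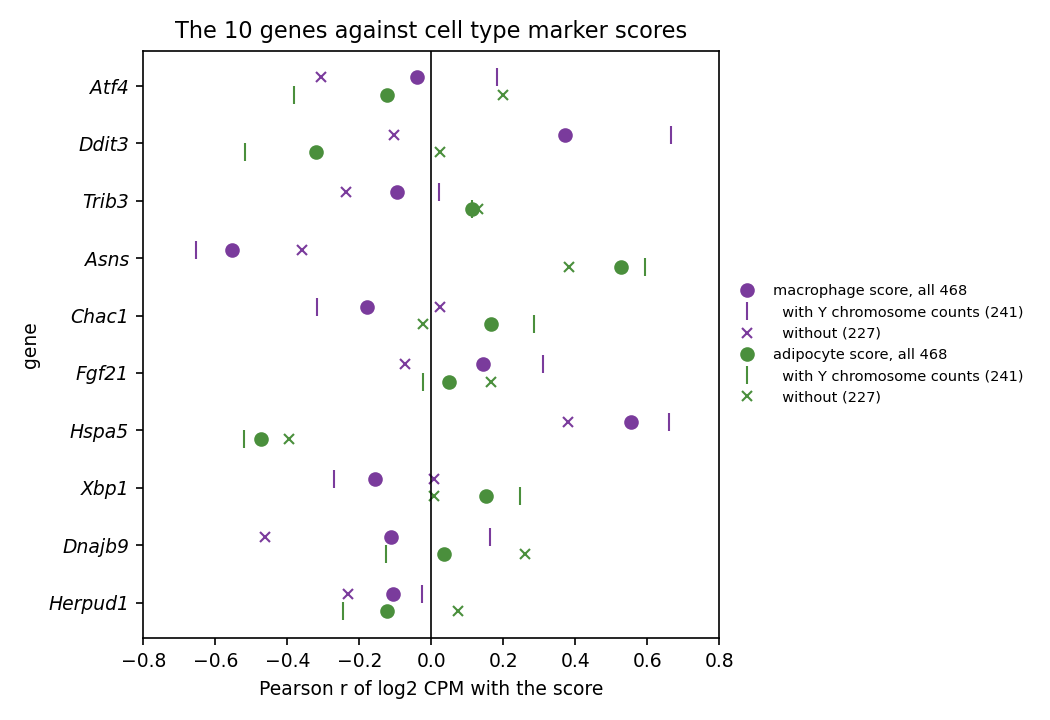
Pearson r of log2 CPM of each of the 10 genes with the macrophage score (purple) and the adipocyte score (green), as a dot for all libraries (centred within both sets), a bar for those with Y chromosome counts and a cross for those without. Asns and Hspa5 keep their sides in both sets, while Ddit3 lies at 0.667 and -0.103 with the macrophage score.

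The genes most like each member were taken from those with a mean of at least 10 CPM, ranked by r over all libraries. This is a description with no test. Hspa5 had r above 0.5 with 4.26% of 9507 genes and below -0.5 with 1.29%, and Asns with 2.56% and 3.81%, whereas Trib3 and Fgf21 had none. The 5 genes closest to Hspa5 were the chaperone-related genes Manf, Sdf2l1, Hyou1, Hsp90b1 and Creld2 (r from 0.863 to 0.922). The 5 closest to Asns were Ces1d, Aldh2, Aldh6a1, Ivd and the adipocyte marker Cfd (r from 0.653 to 0.664), and the farthest were Rab31, Iqgap1 and Calu (r from -0.624 to -0.613). With marker scores as covariates, the r of Asns with Ces1d was 0.403 and with Aldh6a1 0.351, whereas that of Hspa5 with Manf was 0.909.

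The genes closest to Atf4 were Ndel1 (r = 0.681), Slc38a2 (0.637), the co-chaperone gene Bag3 (0.593), Mef2d (0.579) and Cars (0.577), and the farthest was Cc2d2a (-0.527). Ddit3 was closest to Atf3, a stress-induced transcription factor gene (r = 0.647, with 0.754 and 0.487 in the libraries with and without Y chromosome counts), and to the protease gene Ctsz (0.610). Herpud1 was closest to 5 genes of the cytosolic heat shock response, Hspa1b (0.615), Dnajb1 (0.599), Hspa1a (0.593), Bag3 (0.590) and Hsph1 (0.582). Without DO283 these were 0.636, 0.630, 0.615, 0.613 and 0.611. Hspa1a and Hspa1b are near-identical genes, so the split of reads between them is uncertain.

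Dnajb9 was closest to Fnip1 (0.676), Ipo7 (0.671), Ppp4r2 (0.661) and Arih1 (0.654). Xbp1 was closest to Irf2 (0.628), Slc43a1 (0.572) and Net1 (0.562), and Chac1 to 4931406P16Rik (0.575), Arrdc3 (0.552) and Srp68 (0.545). Ube2h was among the 5 closest of both Chac1 (0.537) and Trib3 (0.443), the latter led by Tmem140 (0.497) and Ypel3 (0.481). Fgf21 was closest to Spry4 (0.426) and Atf5 (0.422).

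The labels carry a mouse number and a library number, the only sign of the order in which animals and libraries were handled. With both in 1 edgeR quasi-likelihood model, 2 of the 10 genes changed with mouse number while 13.7% of 18380 genes did. Trib3 fell by 0.05 on the log2 scale per 100 mice (SE 0.02, adjusted p = 0.0135), and Xbp1 rose by 0.02 (SE 0.01, adjusted p = 0.0420). Within the libraries with Y chromosome counts alone, and within those without, neither passed, although the slopes kept their sign (-0.04 and -0.06 for Trib3, 0.03 and 0.02 for Xbp1). Without the libraries flagged for another tissue the adjusted p of Xbp1 was 0.0504. With library number no member changed, while 0.294% of genes did, and none of the 10 had an unadjusted p under 0.05. DESeq2 and limma also called 0 members with library number. With mouse number, 6 of the 10 had an unadjusted p under 0.05, as did 4852 of 18380 genes (edgeR). There, limma called 3 members (2240 of 18380 genes) and DESeq2 called 2 (2732 genes).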

How the data were processed

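RNA was sequenced from visceral adipose tissue (gonadal fat pad, per the methods of the study) of 468 mice (n = 468 throughout, 241 libraries with Y chromosome counts and 227 without), with polyadenylated RNA and paired reads. The authors treated both ends of a pair as separate reads, aligned them to a joint transcriptome of the founder strains and estimated abundance by expectation maximization (EMASE, run by GBRS), and the values they deposited are expected counts per gene, not normalized. Neither software versions nor whether strand was used are stated in the sources at hand. A second deposited table, also by the authors, is on a log2 scale (DESeq2's variance stabilizing transform), used as an alternative, and whether batch had been removed from it is not given. The build in the submitters' processing notes is GRCm38, and 99.16% of 23180 gene positions were the same in GENCODE M21.

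The filter kept 18380 genes, those reaching 10 counts in 50% or more of libraries. For the count models the expected counts were rounded: edgeR 4.0.16 and DESeq2 1.42.0. Log2 CPM used TMM scaling and a prior count of 2, and limma 3.58.1 was fitted to all genes with a term for libraries with Y chromosome counts. That term stands in for sex, which the labels do not give. Adjusted p-values are by Benjamini-Hochberg over all genes tested, called under 0.05. Partners were, for each member, the 5 genes with the highest and the 3 with the lowest r, and not all are named. Genes outside this rule and the 4 with the largest r of a list were named after their values were seen. Members, gene lists and tests were chosen with earlier results of these data known, and the product terms, the omission of DO283, the fits of the lists in subsets of libraries and the signs of pairs in blocks were added after seeing the data. Scripts were tested on simulated data. Alternatives were other scalings, prior counts, filters, covariates and subsets of libraries. Counting error was small against the spread over mice except for Fgf21. Nothing says whether animals shared a litter. The methods of the study name mouse generations, waves and sequencing batches, which the labels do not assign to libraries. No term for these or for kinship was fitted, apart from mouse and library number in the models that test those numbers. All p-values therefore treat the libraries as independent. All sample columns were used. Some genes of the lists and of the closest genes are not reported here.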

Additional observations from a re-analysis of the deposited data

Results flagged for a closer look

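The slope of a member's log2 CPM on Atf4, on Hspa5 or on a marker score differed between the libraries with and without Y chromosome counts in 23 of the fits (product term in limma, Benjamini-Hochberg over all genes). Each value is the slope in the libraries with these counts minus that in the libraries without, in log2 CPM per unit of log2 CPM or of score. The product terms were chosen after seeing the data, and 37.9% to 55.4% of all genes passed the same test.

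On Atf4, the difference was -1.34 for Fgf21, 0.75 for Chac1, 0.53 for Hspa5, -0.40 for Trib3 and 0.32 for Xbp1. On Hspa5, it was 0.43 for Ddit3 and 0.42 for Dnajb9, and the slope of Dnajb9 had opposite signs (0.38 and -0.05).

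On the macrophage score all 10 members differed. The difference was 0.42 for Fgf21, 0.35 for Ddit3, 0.32 for Dnajb9, 0.23 for Trib3, 0.21 for Atf4, 0.11 for Herpud1 and 0.0917 for Hspa5. It was -0.25 for Chac1, -0.21 for Asns and -0.0910 for Xbp1. On the adipocyte score it was 0.27 for Chac1, -0.35 for Fgf21, -0.28 for Ddit3, -0.25 for Atf4, -0.24 for Dnajb9 and -0.15 for Herpud1. The spread of both scores also differed between the sets, with SDs of 0.867 and 0.614 for macrophages and 0.755 and 0.482 for adipocytes, and its part in the differences was not tested.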

How the results depend on the processing

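Among the alternatives for single fits, 27 kept direction but no longer passed, 11 reversed and the rest kept both. Among those for pairs, 84 moved by more than the spread used, 3 reversed and the rest moved by less, blocks of library or mouse numbers not included. In at least 1 of those blocks 8 of the 35 pairs with a permutation p under 0.05 turned sign, 3 in a library block and 7 in a mouse block. Ddit3 with Dnajb9 had the largest r of the 8 (0.342 over all libraries, -0.00503 in its lowest block). Trib3 with Asns fell to -0.0670, Hspa5 with Dnajb9 to -0.00884 and Asns with Dnajb9 to -0.0884. The others were Trib3 with Xbp1 (-0.0844), Atf4 with Chac1 (-0.0732), Atf4 with Xbp1 (-0.111) and Trib3 with Fgf21 (-0.0789). For slopes with mouse number, 19 kept their call and 5 lost it. The median r within the amino acid arm was 0.350 in library block 2, and that within the ER arm 0.442 in library block 4. The median between the arms was 0.171 and 0.260 in library blocks 3 and 5, and 0.277, 0.253 and 0.156 in mouse blocks 2, 3 and 4. In the libraries without Y chromosome counts alone, 5 members rose with Atf4, 2 with Hspa5 and 1 with the macrophage score, and 1 fell with the adipocyte score. In those with Y chromosome counts alone, 5 rose and 3 fell with the macrophage score. Members that fell with the macrophage score were 3 without DO283 and 3 without the 10% of libraries with the lowest totals. Those that fell with the adipocyte score were 2 in each of these settings and 2 without the libraries flagged for another tissue. Members called with mouse number were 4 with no term for Y chromosome counts, 0 in either set alone and 1 without the libraries flagged for another tissue. In the libraries without Y chromosome counts, r with the adipocyte score reversed to 0.198 for Atf4, -0.0232 for Chac1, 0.0251 for Ddit3 and 0.0737 for Herpud1. There, r with the macrophage score reversed to 0.0249 for Chac1, -0.103 for Ddit3, -0.0733 for Fgf21 and 0.00801 for Xbp1, that of Dnajb9 with Hspa5 to -0.0429 (-0.0430 as a pair) and that of Xbp1 with Atf4 to -0.00376 (-0.00377 as a pair). In those with Y chromosome counts, Dnajb9 had 0.163 with the macrophage score, and Asns with Dnajb9 had -0.0440. The cause was not tested. No paired analysis was possible because all libraries form 1 group. Depth limits only Fgf21, and sex, batch, splice forms and strand could not be assigned from the labels.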

Other observations

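The mitochondrial unfolded protein response was described by 9 chaperone and protease genes that are no members. Of these, 8 rose and 1 fell with Atf4 (23.3% and 24.5% of all genes). The median r was 0.265, highest for Hspe1 at 0.333 and Lonp1 at 0.326. With Hspa5, 7 fell and 1 rose (36.6% and 30.8% of all genes). The median r was -0.328, lowest for Clpx at -0.505. These genes also moved with the marker scores, and 8 rose with the adipocyte score (34.1% of all genes). On the macrophage score 8 fell (41.3% of all genes), with r = -0.732 for Clpp. Htra2 was the exception on both scores. Among the 10 stress genes, Dnajb9 (r = 0.489) and Asns (r = 0.450) were closest to the mean score of the mitochondrial genes, and Hspa5 (r = -0.331) was farthest. In the libraries with and without Y chromosome counts Atf4 had r of -0.216 and 0.491 with that score. With Atf4, 1 rose and 5 fell in the first set (17.3% and 18.4% of all genes). In the second, 8 rose and none fell (25.5% and 29.6% of all genes).

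Immediate early genes, which respond to handling and cell isolation as well as to signals, were a further list of 10. All 10 rose with Atf4 (median r 0.235), where 23.3% of all genes rose, and 9 did so without DO283 (22.6% of all genes). In the libraries with and without Y chromosome counts 10 and 6 rose (17.3% and 25.5% of all genes). With Hspa5 4 rose, against 30.8% of all genes, and none fell. All 10 also rose with mouse number, from 0.09 on the log2 scale per 100 mice for Jun to 0.58 for Fosb (edgeR, largest adjusted p 0.0107, for Egr2). Of all 18380 genes 921 rose with it, and 13.7% changed in either direction. The part of the order of mice in the relation with Atf4 was not tested.

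Of 10 progenitor markers, 7 rose and 1 fell with Hspa5 (30.8% and 36.6% of all genes), and 5 fell and none rose with Atf4 (24.5% and 23.3%). With Atf4, 1 rose and none fell in the libraries with Y chromosome counts (17.3% and 18.4% of genes), and 8 fell in those without (29.6%). Mesothelial markers fell with Atf4 in 7 of 7 genes (median r -0.240), where 24.5% of all genes fell. They fell in 3 of 7 with Y chromosome counts and in 7 of 7 without (18.4% and 29.6% of all genes).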
